A study of Mus musculus with 8 samples.

Results

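The 10 genes described here encode core parts of the TGF-beta signalling pathway in mouse CD8+ T cells: the ligand Tgfb1, the receptors Tgfbr1, Tgfbr2 and Tgfbr3, the signal carriers Smad2, Smad3 and Smad4, the inhibitory Smad7, and the nuclear repressors Ski and Skil. They were taken by gene symbol from a table of 29426 symbols, and all 10 were found and passed the filter on low counts, as did 12313 genes in all. RNA was sequenced from 8 libraries of spleen CD8+ T cells that had been enriched on magnetic beads and then sorted by flow cytometry with stains for CD44, CD122, CD8, CD4 and viability, at a stated purity of about 97%. The titles make 4 groups of 2 libraries: 2 genotypes, WT and mCre, and in each of them 2 subsets, TN and MP. miR-29 and Cre appear together in the title of the series, and the design text writes VM where the titles write MP. Neither the allele that mCre stands for, nor the promoter driving the Cre, nor the mouse strain was given in the sources used here. Spleens came from adult or neonatal mice, and which library came from which age is not given either. No label says whether the 2 libraries of a group came from separate mice, so the p-values measure only the spread between these libraries, which may be technical.

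TGF-beta is secreted in a latent form and, once released, binds the type II receptor (Tgfbr2), which recruits and phosphorylates the type I receptor (Tgfbr1); the co-receptor betaglycan (Tgfbr3) presents ligand to this pair. Tgfbr1 then phosphorylates Smad2 and Smad3, which join Smad4 and enter the nucleus to switch genes on or off. Smad7 blocks the activated receptor, and Ski and Skil (also called SnoN) bind the Smads and repress their target genes. In T cells the pathway is known for restraining activation and effector programmes, for sustaining naive T cells, and for inducing the integrin CD103, encoded by Itgae. Antigen-inexperienced CD8+ T cells with high CD44 and CD122 are known as virtual memory cells, and naive cells carry little of either marker.

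Library totals ranged from 13479586 to 30057658 counts, the number of genes detected from 14834 to 15722, and the mitochondrial share from 2.17% to 2.52%. Within every group the replicates differed by more than counting noise, with a chi-square per degree of freedom of 4.32 to 6.45. The CD8 T cell markers summed to between 3840 and 4280 CPM (counts scaled to a common library size) in all libraries. The sort markers Cd44 and Il2rb (CD122) summed to 195.2 to 219.9 CPM in the TN libraries and 1240 to 1537 CPM in the MP libraries. Markers of B cells summed to at most 20.7 CPM, and Cd4 stayed under 1 CPM in every library.

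Because the series title names miR-29, its mature sequences are shown first, with the seed (bases 2 to 8) in capitals. RefSeq (GRCm38.p6) lists 3 mature miR-29 3p sequences at 4 loci on chromosomes 1 and 6, and all 3 share the seed AGCACCA.
miR-29a-3p: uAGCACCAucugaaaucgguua
miR-29b-3p: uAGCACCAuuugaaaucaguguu
miR-29c-3p: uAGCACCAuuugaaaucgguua
The letters that pair with this seed, TGGTGCT, were searched on the sense strand of the longest annotated 3' UTR of each gene (GENCODE M21). They occurred in 1 of the 10 genes, Ski, once, at base 1069 of its 3266-base 3' UTR on the minus strand of chr4:155156254-155156283 (GRCm38), shown with the site in capitals.
Ski site: cacatcccctcTGGTGCTtggttgaacaag
Of all 20815 3' UTRs searched, 13.2% held the letters, and of the 2079 of like length to that of Ski, 28.2% did. The other 9 genes, the 3 receptors and the 4 Smads among them, held none. A match is a description of letters, not of binding.

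Most of these genes differed between MP and TN cells. In WT, 8 of the 10 passed the test for MP against TN (edgeR quasi-likelihood F test, adjusted over all genes tested, called at an adjusted p under 0.05): Smad3, Skil and Tgfbr1 were higher in MP, and Tgfbr3, Smad7, Ski, Tgfbr2 and Smad4 were lower. Over all genes, 31.7% were called in this comparison. In mCre, 7 of the 10 were called, against 32.5% of all genes, 2 higher (Smad3 and Skil) and 5 lower (Tgfbr3, Smad7, Tgfbr2, Ski and Smad4). The median log2 fold change of the 10 genes was -0.13 in WT and -0.15 in mCre, beside medians over all genes of -0.0019 and 0.0024. With DESeq2 the counts were 6 and 7. CPM is a level in a bulk sample, so fewer cells carrying a transcript and less of it per cell cannot be told apart.

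**Figure D1:**
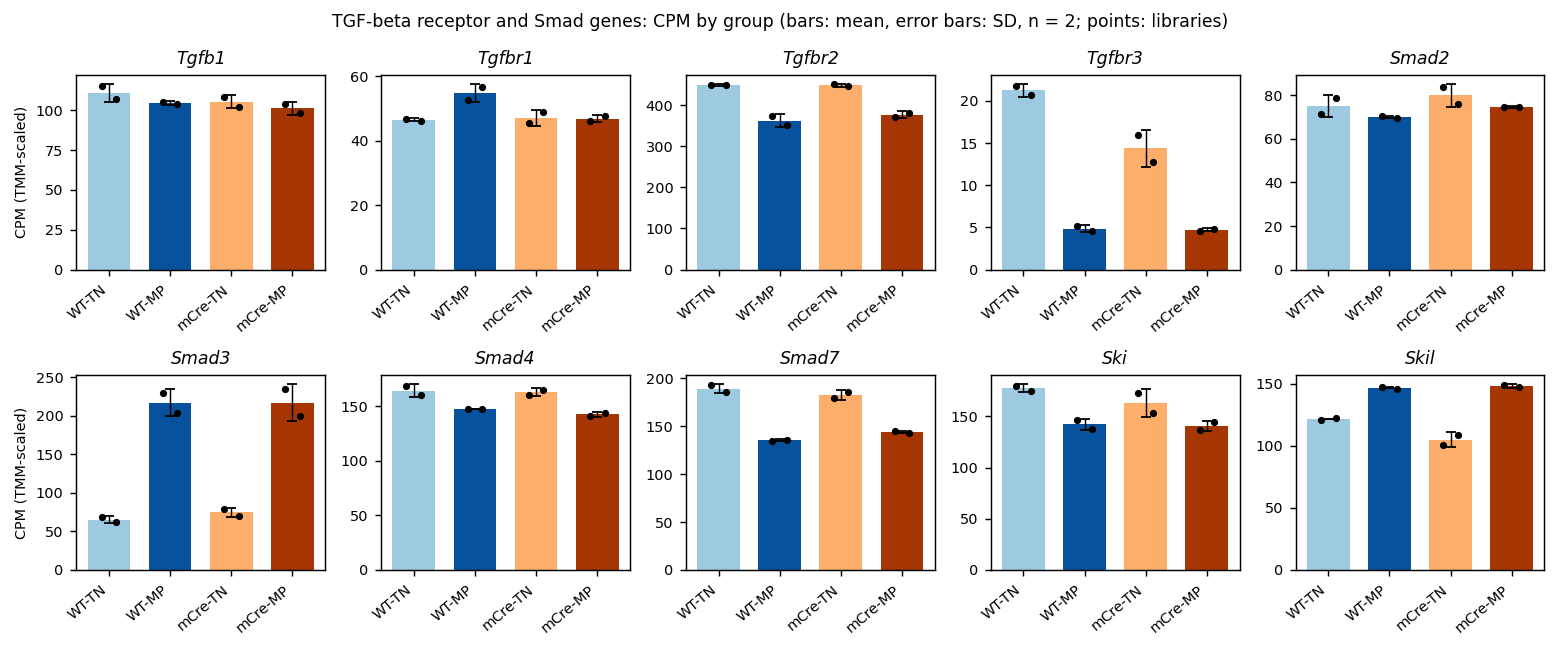
CPM (linear axes from 0) of each of the 10 genes in the 4 groups. Bars are means, error bars are SDs of 2 libraries and points are single libraries. Smad3 is low in both TN groups and high in both MP groups, Tgfbr3 is the reverse, and mean Tgfbr3 in mCre TN (14.4 CPM) lies between WT TN (21.2 CPM) and the MP groups (4.87 and 4.73 CPM).

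Set per length, the receptors spanned the whole range of the 10 genes. On the RPKM scale (CPM per kilobase of annotated exon), the mean level over the 8 libraries was highest for Tgfbr2 at 49.96 and lowest for Tgfbr3 at 1.73. Between them followed Smad4 (41.5), Smad7 (36.0), Ski (28.0), Smad3 (25.9), Tgfb1 (20.9), Skil (13.4), Smad2 (8.53) and Tgfbr1 (7.46). The ranges over libraries of neighbours in this order overlapped, except between Tgfb1 and Skil, between Skil and Smad2, and between Tgfbr1 and Tgfbr3. Smad3 had the widest span in RPKM, 11.2 to 42.2, and crossed several of its neighbours between subsets. The type II receptor gene was thus read at a higher level than the type I receptor gene in every library: 42.95 to 55.1 RPKM for Tgfbr2 and 6.93 to 8.68 RPKM for Tgfbr1.

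**Figure D2:**
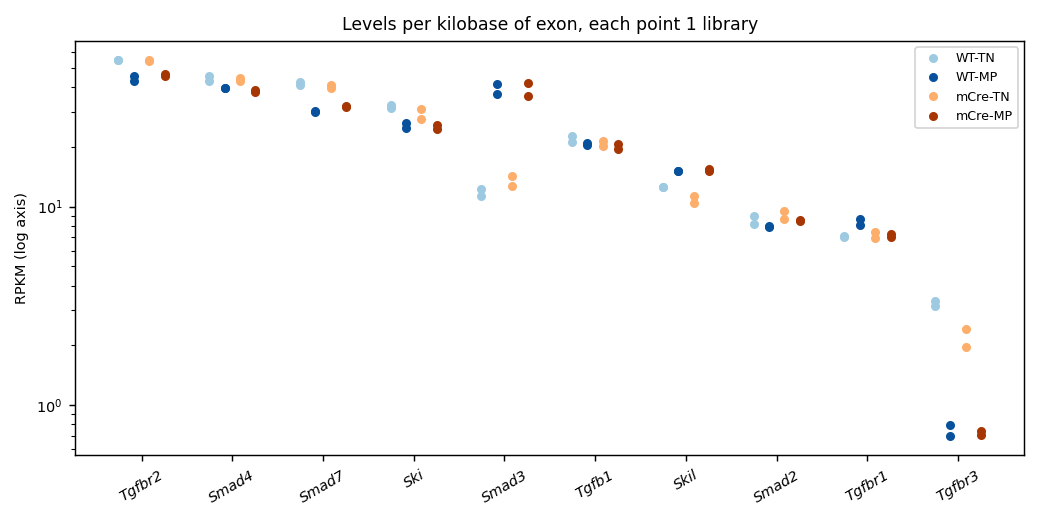
RPKM of each gene on a log axis, 1 point per library, coloured by group and ordered by the mean over all libraries. Smad3 splits into a TN cloud near 11.2 to 14.2 and an MP cloud up to 42.2, while Tgfbr3 lies lowest in every library.

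The ligand gene Tgfb1 (chr7:25687002-25705077, plus strand) was read at 98.3 to 115 CPM in the 8 libraries. In WT the means were 111 ± 5.80 CPM for TN and 104.5 ± 1.37 CPM for MP, and in mCre 105 ± 4.00 CPM and 101 ± 3.91 CPM (SD, n = 2). The log2 fold change for MP against TN was -0.08 (SE 0.06, adjusted p = 0.295) in WT and -0.06 (SE 0.05, adjusted p = 0.431) in mCre. Neither passed, and the MP and TN libraries overlapped.

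Among the receptors, the co-receptor Tgfbr3 (chr5:107106570-107289629, minus strand) differed most between subsets. In WT TN it was read at 21.8 and 20.7 CPM and in WT MP at 5.18 and 4.55 CPM. The mCre TN libraries held 15.9 and 12.8 CPM, and the mCre MP libraries 4.61 and 4.85 CPM. All 4 TN libraries lay above all 4 MP libraries, and both mCre TN libraries lay below both WT TN libraries. Mean CPM was 4.36 times as high in TN as in MP in WT and 3.03 times as high in mCre. The log2 fold change for MP against TN was -2.12 (SE 0.14, adjusted p = 7.16e-10) in WT and -1.61 (SE 0.14, adjusted p = 4.82e-08) in mCre. These values rest on few reads, 84 to 486 counts per library, and 4 other annotated genes overlap Tgfbr3, 1 of them (Gm8145) on the opposite strand; the strand setting of the counting was not given in the sources used here.

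The type II receptor gene Tgfbr2 (chr9:116084293-116175360, minus strand), which binds the ligand, was read at 450 and 448 CPM in the WT TN libraries and 374 and 352 CPM in those of WT MP. In mCre the values were 451 and 446 CPM in TN and 371 and 382 CPM in MP. The 4 TN libraries lay within 446 to 451 CPM, above every MP library. MP against TN gave a log2 fold change of -0.31 (SE 0.05, adjusted p = 6.59e-05) in WT and -0.25 (SE 0.05, adjusted p = 0.000483) in mCre, a mean level in TN 1.24 and 1.19 times that in MP. The ratio of Tgfbr3 to Tgfbr2 in RPKM was 0.036 to 0.061 in the TN libraries and 0.016 to 0.017 in the MP libraries, so co-receptor transcript was scarce beside the signalling receptor throughout.

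The type I receptor gene Tgfbr1 (chr4:47353222-47414931, plus strand), whose product is the kinase that acts on Smad2 and Smad3, set WT MP apart from the other groups. It was read at 52.7 and 56.7 CPM in WT MP, and at 46.8 and 46.2 CPM in WT TN. The mCre libraries held 45.3 and 48.8 CPM in TN and 46.0 and 47.6 CPM in MP. Both WT MP values lay above the 6 others. In WT the log2 fold change for MP against TN was 0.24 (SE 0.07, adjusted p = 0.0137), and in mCre it was -0.0041 (SE 0.07, adjusted p = 0.972). The WT call was lost with DESeq2 (adjusted p = 0.0623), without WT TN replicate 2 (0.0612) and without WT MP replicate 2 (0.134). The test of the difference between the genotypes gave -0.24 (SE 0.10, adjusted p = 0.748), so the subset difference was not shown to differ between WT and mCre.

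Of the signal carriers, Smad3 (chr9:63646767-63757994, minus strand) was higher in MP by the widest margin of the 10 genes. The TN libraries held 68.2 and 62.3 CPM in WT and 78.6 and 70.5 CPM in mCre. The MP libraries held 229 and 204 CPM in WT and 234 and 200 CPM in mCre. No MP library came near any TN library. Mean CPM was 3.32 times as high in MP as in TN in WT and 2.90 times as high in mCre. This was a log2 fold change of 1.73 (SE 0.09, adjusted p = 1.05e-07) in WT and 1.53 (SE 0.09, adjusted p = 2.28e-07) in mCre, and it was called in every alternative run. The counts behind these values ran from 923 to 5304 per library.

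Smad2 (chromosome 18, 76241580 to 76310963, plus strand), which carries the same receptor signal as Smad3, did not pass in either genotype. Its values ran from 69.6 to 83.7 CPM over the 8 libraries, with MP and TN overlapping. The log2 fold change for MP against TN was -0.10 in both, with an adjusted p of 0.226 in WT and 0.214 in mCre. The ratio of Smad3 to Smad2 in RPKM was 1.25 to 1.51 in the 4 TN libraries and 4.25 to 5.15 in the 4 MP libraries. The relative transcript level of these 2 carriers thus differed between the subsets without overlap, in both genotypes.

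Smad4 (chromosome 18, 73639009 to 73703780, minus strand), the partner shared with the BMP branch, was slightly lower in MP. TN libraries held 168 and 160 CPM in WT and 160 and 165 CPM in mCre. Both WT MP libraries held 147 CPM, and the mCre MP libraries held 141 and 144 CPM. Every MP library lay below every TN library. The log2 fold change was -0.16 (SE 0.05, adjusted p = 0.0231) in WT and -0.19 (SE 0.05, adjusted p = 0.00647) in mCre. The WT call was lost with DESeq2 (adjusted p = 0.0706), with no expression filter (0.0625), and without WT TN replicate 1 (0.207) or either WT MP replicate (0.0993 and 0.0977). The mCre call was lost without mCre TN replicate 2 (0.0545) or mCre MP replicate 1 (0.0588). Another annotated gene, on the opposite strand (AC132418.2), overlaps Smad4.

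The inhibitors differed among themselves. Smad7 (chromosome 18, 75367529 to 75395935, plus strand), which TGF-beta signalling is known to induce as a brake on its own receptor, was read at 193 and 186 CPM in the WT TN libraries and 135 and 136 CPM in those of WT MP. In mCre it was read at 179 and 186 CPM in TN and 145 and 143 CPM in MP. The MP libraries were the lower in both genotypes, without overlap. Against TN, MP had a log2 fold change of -0.48 (SE 0.05, adjusted p = 3.22e-07) in WT and -0.34 (SE 0.05, adjusted p = 2.04e-05) in mCre.

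Ski and Skil encode related repressors, and they differed between MP and TN in opposite directions. Ski (chr4:155154075-155222592, minus strand) had 180 and 175 CPM in the WT TN libraries and 146 and 138 CPM in the WT MP libraries. In mCre its values were 173 and 153 CPM in TN and 137 and 144 CPM in MP. It was lower in MP, with log2 fold changes of -0.32 (SE 0.06, adjusted p = 0.000312) in WT and -0.21 (SE 0.06, adjusted p = 0.00834) in mCre. The mCre call was lost without mCre TN replicate 1 (adjusted p = 0.206) and without mCre MP replicate 1 (0.0840).

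Skil (chr3:31095058-31122577, plus strand) was read at 121 and 122 CPM in the WT TN libraries and 147 and 146 CPM in those of WT MP. In mCre its values were 101 and 109 CPM in TN and 149 and 147 CPM in MP. It was higher in MP, without overlap, with log2 fold changes of 0.27 (SE 0.05, adjusted p = 0.000469) in WT and 0.50 (SE 0.05, adjusted p = 3.47e-07) in mCre. The ratio of Skil to Ski in RPKM was 0.335 to 0.409 in the TN libraries and 0.577 to 0.624 in the MP libraries, so per length Ski remained the higher of the pair. That order rests on the annotated exon length in MP. In CPM, Ski was read at 146 and 138 in WT MP and 137 and 144 in mCre MP, below Skil in each library.

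Without regard to genotype, 7 of the 10 genes had no overlap between the 4 MP and the 4 TN libraries: Smad3 and Skil were higher in MP, and Tgfbr2, Tgfbr3, Smad4, Smad7 and Ski lower. Over all genes tested, 36.6% had no overlap. Tgfb1, Tgfbr1 and Smad2 overlapped. Some markers of other cell types moved with the subset. NK cell markers (Ncr1, Klrb1c, Klre1 and Gzma) summed to 0.665 to 1.95 CPM in TN and 15.2 to 23.0 CPM in MP, and all 4 were called higher in MP in both genotypes. Ncr1, under 1 CPM in every library, had 0 counts in each TN library and 3 to 15 in an MP library. Klrb1c had 0 and 35 to 60. Klre1 had at most 2 and 54 to 269. Ncr1, Klrb1c and Klre1 thus passed the filter through MP alone, so their calls could only be higher. Of the CD4 and regulatory T cell markers, which summed to 2.95 to 4.32 CPM in TN and 16.3 to 21.9 CPM in MP, it was Zbtb7b that was higher. Foxp3 went the other way, called lower in WT (-1.48, adjusted p = 0.0127) and not called in mCre (-0.52). The stromal and endothelial list, nearly all Pecam1, summed to 194 to 234 CPM in TN and 112 to 139 CPM in MP, with Col3a1 and Pdgfra at 0 counts. Their part in the subset differences was not tested.

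**Figure D3:**
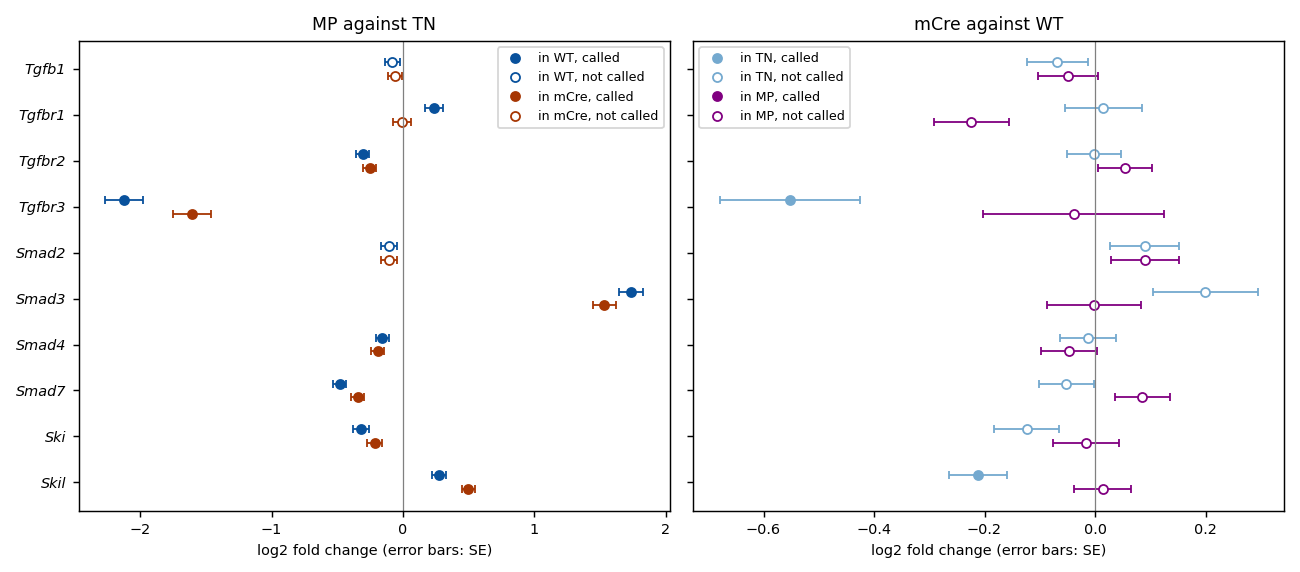
Log2 fold changes of the 10 genes, left for MP against TN in WT and in mCre, right for mCre against WT in TN and in MP (the horizontal scales differ). Error bars are SEs, filled points passed at an adjusted p under 0.05 and open points did not. Smad3 (1.73 and 1.53) and Tgfbr3 (-2.12 and -1.61) lie farthest from 0 on the left, and on the right only Tgfbr3 (-0.55) and Skil (-0.21) are filled, both in TN.

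The genotype comparison asked how mCre cells differed from WT cells of the same subset. In TN cells, 2 of the 10 genes were called, against 3.47% of all genes, and both were lower in mCre: Tgfbr3 and Skil. Mean Tgfbr3 was 14.4 ± 2.17 CPM in mCre TN and 21.2 ± 0.791 CPM in WT TN (SD, n = 2), that is 67.7% of WT. Its log2 fold change was -0.55 (SE 0.13, adjusted p = 0.0190). Mean Skil was 105 ± 5.98 CPM in mCre TN and 121 ± 0.247 CPM in WT TN, 86.5% of WT, with a log2 fold change of -0.21 (SE 0.05, adjusted p = 0.0310). For both genes each mCre TN library lay below each WT TN library.

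Both calls were near the threshold. DESeq2 called neither (adjusted p = 0.0728 for Tgfbr3 and 0.0655 for Skil). Tgfbr3 was also lost without WT TN replicate 1 (0.0894), WT TN replicate 2 (0.0797) or mCre TN replicate 2 (0.209), and Skil without WT TN replicate 1 (0.0814), WT TN replicate 2 (0.136) or mCre TN replicate 1 (0.283). The 8 other genes had log2 fold changes in TN from -0.12 (Ski, SE 0.06, adjusted p = 0.297) to 0.20 (Smad3, SE 0.09, adjusted p = 0.319). With no expression filter Smad3 was called too (0.21, adjusted p = 0.0246). Ski, the gene with the miR-29 seed match, was read at 91.7% of its WT level in TN and 98.8% in MP. The median over the 10 genes was -0.03, beside -0.0010 over all genes.

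In MP cells none of the 10 genes was called for mCre against WT by edgeR, against 4.04% of all genes, and DESeq2 called none either. At an unadjusted p under 0.05 there was 1, Tgfbr1, against 17.3% of all genes. Tgfbr1 was at 46.8 ± 1.12 CPM in mCre MP and 54.7 ± 2.89 CPM in WT MP (SD, n = 2), with a log2 fold change of -0.22 (SE 0.07, adjusted p = 0.0731). It passed where no expression filter was applied (adjusted p = 0.0319). Tgfbr3, the larger of the calls in TN, stood at 4.73 ± 0.168 CPM in mCre MP and 4.87 ± 0.444 CPM in WT MP, a log2 fold change of -0.04 (SE 0.16). Smad3 had the same mean in both, 217 CPM (SD 24.2 in mCre and 17.3 in WT). The log2 fold changes of the 10 genes ran from -0.22 to 0.09, with SEs of 0.05 to 0.16.

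With both subsets in an additive model, mCre against WT called 1 of the 10 genes, Tgfbr3, lower in mCre (log2 fold change -0.36, SE 0.11, adjusted p = 0.0446), against 11.0% of all genes. Over the alternatives its adjusted p ran from 0.0117 to 0.224, and DESeq2 called none of the 10. The interaction, which asks whether the subset difference depends on genotype, called none of the 10 with edgeR or DESeq2, against 0.130% of all genes. At an unadjusted p under 0.05 there were 3 of 10, against 5.92% of all genes: Tgfbr1 (-0.24), Tgfbr3 (0.51, SE 0.21) and Skil (0.23, SE 0.07), and the lowest adjusted p was 0.556. The genotype difference of Tgfbr3 and Skil in TN is therefore not shown to differ from that in MP. Each library enters both a subset comparison and a genotype comparison, so these comparisons share samples.

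Some markers of other cell types differed between genotypes. The 8 myeloid and dendritic cell markers summed to 23.0 to 30.6 CPM in the 4 WT libraries and 20.6 to 22.9 CPM in the 4 mCre libraries. Of them only Csf1r, at most 9.54 CPM, was called in TN (lower in mCre, log2 fold change -1.45, SE 0.34, adjusted p = 0.0462) and none in MP. In TN, Adgre1 (-1.09), Lyz2 (-0.58), Itgam (-0.13) and Flt3 (-0.10) were lower in mCre, and Xcr1 (0.46) and Cd68 (0.09) higher, none called. In MP, means in WT and mCre were 7.25 and 3.20 CPM for Csf1r and 2.255 and 0.953 CPM for Adgre1. They were 3.11 and 1.94 CPM for Lyz2. The mean of Xcr1 was also lower in mCre MP, and those of Cd68, Itgam, Flt3 and Siglech were higher. Platelet and erythroid markers summed to 23.0 to 23.7 CPM in WT TN and 26.0 to 47.5 CPM in mCre TN, and to 15.5 to 22.1 CPM and 23.6 to 33.1 CPM in MP. None of them was called within a subset, Hba-a1 was called higher in mCre across subsets (0.60, adjusted p = 0.0299), and Pf4, Ppbp and Gp9 stayed under 1 CPM. In MP, Pecam1 was called higher in mCre (0.26, adjusted p = 0.0105) and Klre1 lower (-1.58, adjusted p = 0.000618). The part of such cells in the genotype differences of Tgfbr3, Skil and the pathway genes was not tested.

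The other genes of the pathway were counted from 9 lists holding 85 genes, of which 65 passed the filter. For MP against TN in WT, 18 of 65 were higher and 18 lower, with a median log2 fold change of -0.04, and in mCre 19 were higher and 17 lower, with a median of 0.03. For mCre against WT, 1 of 65 was called in TN (Runx3, higher) and 3 in MP (Pmepa1 and Daxx higher, Nrros lower). Across both subsets 6 were higher and 2 lower, 8 in all, which became 4 when replicate 1 of WT MP was left out and 5 when its replicate 2 was, and the interaction called none with edgeR. The shares of all genes called are those given above for each comparison. Daxx, an adaptor of the receptor, rose by 0.25 in mCre MP (SE 0.06, adjusted p = 0.0217), and that call was lost with DESeq2 (0.0556), without either WT MP replicate (0.126 and 0.158) and without mCre MP replicate 1 (0.413).

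Among other ligands, 2 of 4 tested, Gdf11 and Bmp7, were higher in MP in each genotype and none lower. With 1 to 5 counts in a TN library, Bmp7 passed the filter through MP alone, so its call could only be higher. Bmp7 had at most 27 counts in a library, and its mCre call was lost with DESeq2 (adjusted p = 0.124), without either mCre TN replicate (0.132 and 0.0963) and without mCre MP replicate 1 (0.230). Gdf11, an activin-like ligand that signals through Smad2 and Smad3, rose by 2.16 in WT (SE 0.10) and 1.95 in mCre (SE 0.10) on the log2 scale. Its level was 8.59 to 10.3 CPM in TN and 36.3 to 41.3 CPM in MP. Of the genes for ligand storage and activation, 4 of 11 were tested, and 1 was higher and 1 lower in each genotype. The higher one, Ltbp4, had at most 3 counts in a TN library and 22 in an MP library, and passed the filter through MP alone. Its mCre call (2.53, adjusted p = 0.0462) was lost with DESeq2 (0.142) and with the replicate block (0.0596). Its log2 fold change was 1.79 without mCre MP replicate 2 and 5.91 without mCre TN replicate 1. Nrros, which tethers latent TGF-beta to the cell surface, was the lower one (-0.18 in WT, -0.20 in mCre), and both calls were lost with DESeq2 (adjusted p = 0.113 and 0.0610) and without single libraries (up to 0.386 and 0.301, without replicate 1 of the TN group of either genotype). Nrros was also lower in mCre than in WT in MP (-0.23, SE 0.06, adjusted p = 0.0391), though not with DESeq2 (0.0896) or when either library of a compared group was left out (adjusted p 0.120 to 0.162).

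Of 8 activin and BMP receptors tested, 2 were higher and 3 lower in WT MP, and 4 higher and 3 lower in mCre MP. The type I receptor Bmpr1a of the BMP branch rose by 3.60 in WT and 3.92 in mCre (SE 0.21 in both), from 0.916 to 1.56 CPM in TN to 12.5 to 18.0 CPM in MP. Acvrl1, an alternative type I receptor for TGF-beta and BMP9, was lower in MP, with log2 fold changes of -4.50 (SE 0.26) in WT and -3.26 (SE 0.23) in mCre. Eng, the co-receptor most like Tgfbr3, was lower as well (-2.17 and -1.80). Both co-receptor genes thus had lower levels in MP. Of the other Smads, 2 of 4 were tested. Smad1 of the BMP branch was lower in both (-0.22 in each, adjusted p = 0.0468 in WT and 0.0366 in mCre), and Smad5 was not called. The WT call of Smad1 was lost with DESeq2 (0.216), with no filter (0.103) or the stricter filter (0.0545), with only the WT libraries fitted (0.0767) and without any 1 of the 8 libraries (0.0612 to 0.292). Its mCre call was lost with DESeq2 (0.168), with no filter (0.0623) and without any 1 of the 4 mCre libraries (0.0633 to 0.214).

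Among 17 genes for receptor and Smad turnover, 1 was higher and 6 were lower in MP in each genotype. The higher one was Wwp1, a ubiquitin ligase of the Nedd4 family (0.74 in WT, 0.55 in mCre). Pmepa1, a transmembrane inhibitor that keeps Smad2 and Smad3 from the receptor and is itself a TGF-beta target, was read at 28.7 and 28.8 CPM in the WT TN libraries and 7.38 and 7.13 CPM in those of WT MP. Its mCre values were 33.7 and 31.3 CPM in TN and 11.0 and 13.0 CPM in MP. It was lower in MP (-1.99 in WT, -1.43 in mCre) and higher in mCre than in WT in MP (0.73, SE 0.12, adjusted p = 0.000968). The interaction for Pmepa1 did not pass (adjusted p = 0.327).

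Of 11 nuclear cofactors, 2 were higher and 6 lower in WT MP, and 1 higher and 4 lower in mCre MP. Trim33, which binds phosphorylated Smad2 and Smad3, was lower (-0.27 and -0.28). Zeb2, a Smad-binding repressor, was higher (2.58 and 3.10), with at most 82 counts in a library. With at most 9 counts in a TN library, Zeb2 passed the filter through MP alone, so its call could only be higher. Runx3, a CD8 lineage factor that acts with Smads, was read at 153 and 146 CPM in WT TN against 177 and 190 CPM in mCre TN, and rose there by 0.29 (SE 0.05, adjusted p = 0.00355). That call was lost without WT TN replicate 2 (0.0546) and without mCre TN replicate 2 (0.0628). In the TAK1 branch, which carries TGF-beta signals without Smads, none of 5 was called in WT and 1 (Tab1, -0.30) in mCre.

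**Figure D4:**
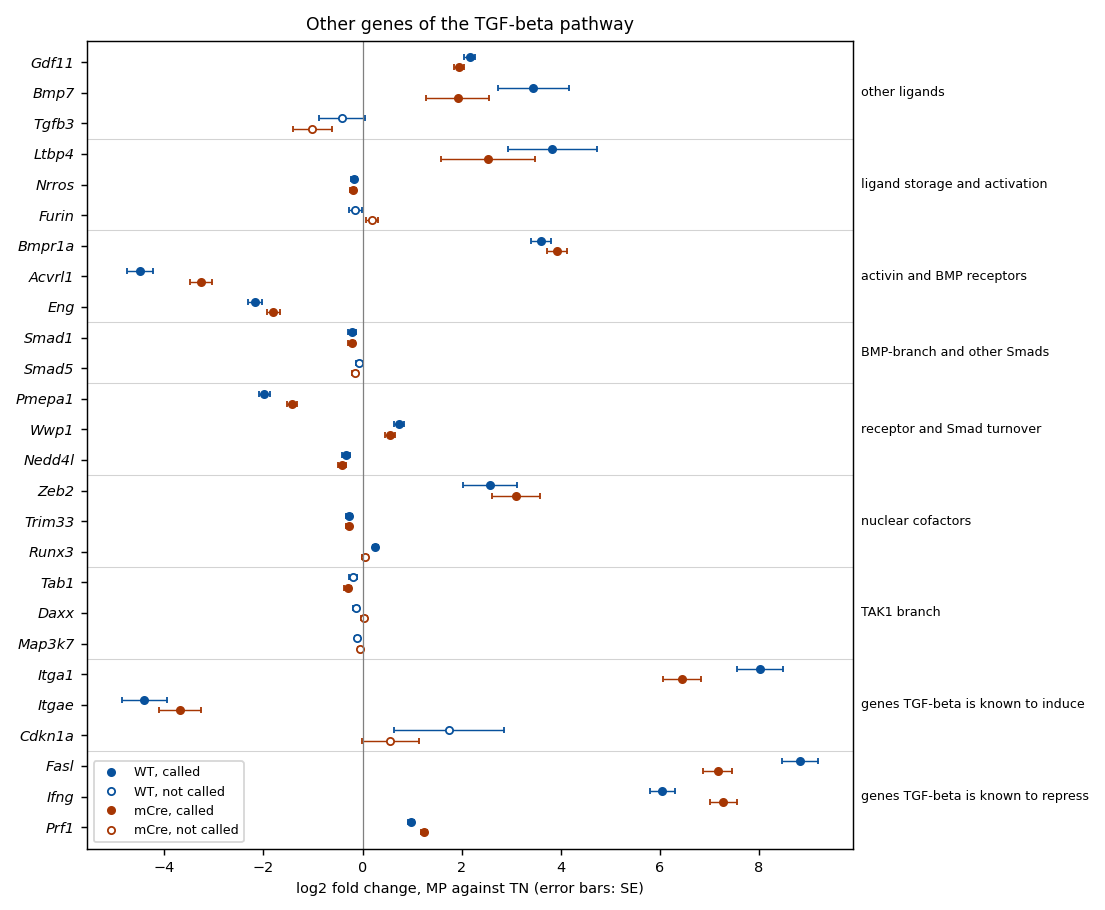
Log2 fold changes (MP against TN) of the genes named by the rule in each pathway list, in WT and in mCre, with SEs as error bars. Filled points passed at an adjusted p under 0.05. Acvrl1 and Eng lie left of 0 and Gdf11, Bmpr1a and the genes known to be repressed by TGF-beta lie right of it.

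Of 5 tested genes that TGF-beta is known to induce, 1 was higher (Itga1), 1 lower (Itgae) and 3 not called in each genotype. The medians, 0.70 in WT and 0.44 in mCre, were the values of Tgfbi, which was not called. Smad7 and Pmepa1, described above as TGF-beta targets and lower in MP, were not in this list. Itgae, which encodes CD103, was read at 182 and 187 CPM in the TN libraries of WT and 192 and 202 CPM in those of mCre. The MP libraries held 9.32 and 8.14 CPM in WT, and 7.20 and 22.0 CPM in mCre, far below TN in both. Its log2 fold change was -4.40 (SE 0.45, adjusted p = 0.00299) in WT and -3.68 (SE 0.42, adjusted p = 0.00397) in mCre, where it missed the threshold when only the mCre libraries were fitted (0.0524). Itga1, the CD49a integrin, had at most 5 counts in a TN library and 170 to 399 in an MP library. It passed the filter through MP alone, so its call for MP against TN could only be higher. All 9 tested genes that TGF-beta is known to repress in T cells were higher in MP in both genotypes, with medians of 3.39 in WT and 3.62 in mCre. Of all 12313 genes tested, 1993 were called higher in WT and 2092 in mCre. The 9 were not all free to go either way. Fasl, with at most 2 counts in a TN library, Klrg1, with at most 1, and Ifng passed the filter on low counts through MP alone. Their calls could thus only be higher. Klrg1 was named after its values were seen. Ifng had at most 10 counts in a TN library and 557 to 823 in an MP library. Prf1 (perforin), also of the 9, rose by 0.98 in WT and 1.24 in mCre. Ifng and Prf1 are also known as genes of memory-like and effector CD8+ T cells.

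Within the table, the genes whose profile over the 8 libraries was nearest to those of the 3 widest-ranging members were found by the root mean square difference of centred log2 CPM, over 8660 genes. Among those nearest to Tgfbr3 were Rgcc (0.156) and Nab2 (0.171). Chsy1 (0.065) was nearest to Smad3, with mean CPM of 66.5 and 217 in WT TN and MP against 65.2 and 217 for Smad3. Trmt12 (0.029), Rpl29 (0.039) and Vopp1 (0.053) were nearest to Skil, which itself spanned 0.498 on the log2 scale over the group means.

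Promoter windows (250 bases before to 50 after an annotated start, 300 in all) were available from RefSeq, GRCm38.p6, for 5 of the 10 genes, in 6 windows. Those of Smad3, the gene with the largest rise in MP, and of Tgfbr2, the most abundant receptor, are shown with the GC box GGGCGG and the Smad-binding letters CAGAC, searched on both strands, in capitals.
Smad3 promoter, chr9:63757945-63758244, minus strand: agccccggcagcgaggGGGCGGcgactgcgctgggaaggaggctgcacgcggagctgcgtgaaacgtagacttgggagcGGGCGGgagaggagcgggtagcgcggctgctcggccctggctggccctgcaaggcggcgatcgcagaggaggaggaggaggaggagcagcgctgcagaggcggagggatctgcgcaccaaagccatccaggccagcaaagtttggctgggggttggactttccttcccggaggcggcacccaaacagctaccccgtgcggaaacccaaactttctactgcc
Tgfbr2 promoter, chr9:116175314-116175613, minus strand: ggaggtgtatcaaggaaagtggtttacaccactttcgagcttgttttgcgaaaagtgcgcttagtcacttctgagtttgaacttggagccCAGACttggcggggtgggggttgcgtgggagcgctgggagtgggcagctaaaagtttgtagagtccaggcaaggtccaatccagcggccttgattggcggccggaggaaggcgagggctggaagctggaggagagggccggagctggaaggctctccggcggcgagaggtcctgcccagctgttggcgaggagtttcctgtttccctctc
Smad3 held the GC box 2 times and no CAGAC, and Tgfbr2 held CAGAC 1 time and no GC box. The windows of Tgfb1 and Ski each held the GC box 6 times. Of 32851 promoters of this length, 35.7% held the GC box and 49.6% held CAGAC. The letters are a description of these windows, not of factor binding.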

How the data were processed

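Sorted spleen CD8+ T cells were sequenced in 8 libraries. The authors deposited raw counts per gene symbol. Per the submitters' processing notes these were made with Trim Galore, HISAT2 and featureCounts on mm10; versions, annotation and strand setting were not given in the sources used here.

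The counts were fitted with edgeR 4.0.16 in R 4.3.3 (TMM scaling, robust quasi-likelihood F test, filterByExpr, which kept 12313 of 29426 genes). A single fit of all 8 libraries had 1 mean per group (4 in all), and mCre was set against WT across subsets with subset as an additive term. Tests were two-sided, with Benjamini-Hochberg adjustment over all genes tested and a threshold of 0.05. The SE of a log2 fold change is its size over the root of F. CPM is TMM-scaled, and RPKM divides it by the union exon length of GENCODE M21 (GRCm38), from which loci were taken too. DESeq2 1.42.0 and 6 other settings, and leaving out each of the 8 libraries, were alternatives. Library totals were 13479586 to 30057658 counts, and the SEs carry the spread between 2 libraries a group as well as counting error.

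The genes and lists were chosen with earlier results of these data known. All 10 genes are named. From each pathway list, the 3 genes with the smallest p in the subset comparisons and the 3 in the genotype comparisons could be named, plus Itgae. Likeness was computed for the 3 members of widest range, over genes of mean log2 CPM of at least 3. Of the 3 genes nearest to Tgfbr3, 1 is not reported here.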

Additional observations from a re-analysis of the deposited data

How the results depend on the processing

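The subset calls of Tgfbr2, Tgfbr3, Smad3, Smad7 and Skil in both genotypes, and of Ski in WT, were kept in all 15 alternatives. The genotype calls were not: for mCre against WT in TN the members called went from 2 to 0 with DESeq2, to 3 with no expression filter and to 0 to 2 with 1 library left out, and across subsets from 1 to 0 with total counts only or DESeq2 and to 0 to 1 with 1 library left out. In MP they went from 0 to 1 with no expression filter. The genes called for mCre against WT in TN were 427, and 783 with no expression filter and 204 to 446 with 1 library left out. In MP they were 498, and 888 with no filter and 195 to 593 with 1 library left out. For the interaction they were 16, and 26 with DESeq2, 81 with no filter and 9 to 32 with 1 library left out. Across subsets they were 1358, and 855 to 1198 with 1 library left out. Of the other pathway genes, the 3 called in MP became 1 with DESeq2, 11 with no filter and 7 when only the compared groups were fitted, and the 1 called in TN became 2, 5 and 2 (added after the data were seen). The cause was not tested.

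Values that changed sign were all near 0 and not called. For MP against TN in mCre, Tgfbr1 (-0.0041) was 0.0044 with no filter and -0.0585 to 0.0495 with 1 library left out. For mCre against WT in TN, Tgfbr2 (-0.0010) was 0.0135 with total counts, 0.0048 with no filter, 0.0032 with the stricter filter, 0.0014 with only the compared groups and -0.0064 to 0.0071 with 1 library left out. Smad4 (-0.0130) was 0.0015 with total counts and -0.0529 to 0.0235 with 1 library left out, and Tgfbr1 (0.0153) was -0.0367 to 0.0775. For mCre against WT in MP, leaving out 1 library gave -0.1314 to 0.0530 for Tgfbr3, -0.1308 to 0.1047 for Smad3, -0.0599 to 0.0171 for Ski and -0.0087 to 0.0197 for Skil. For the interaction, Smad2 (0.0015) was -0.0028 with DESeq2 size factors in edgeR, -0.0156 with total counts, -0.0038 with DESeq2, -0.0077 with no filter, -0.0116 with the stricter filter and -0.0747 to 0.0677 with 1 library left out, where Tgfb1 was -0.0428 to 0.0744 and Smad4 -0.0807 to 0.0046. Across subsets, Smad7 was -0.0039 to 0.0429.

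The deviations of samples with the same replicate number correlated weakly across genes (-0.0446 to 0.109). The highest values were those within a genotype, WT TN with WT MP (0.109) and mCre TN with mCre MP (0.0769). Correlations this weak cannot decide whether the numbers pair samples, and no label says so. With the replicate block, 8 and 7 members were called for MP against TN in WT and mCre, 2 and 0 for mCre against WT in TN and MP and 1 across subsets, and 548 and 617 genes were called for mCre against WT in TN and MP. Depth limits Tgfbr3 most, with 84 counts in its lowest library. Leaving out 1 library leaves a group of 1, whose spread is assumed to be that of the other groups.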
